A study of Mus musculus with 8 samples.

Results

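The 10 genes described here act in the DNA damage checkpoint of pachytene spermatocytes: H2afx, Mdc1, Rnf8, Brca1, Atr, Topbp1, Atm, Chek2, Trp63 and Cdkn1a. They were taken by gene name from a table of 54532 genes, in which all 10 were found, and 9 of them had an FPKM (fragments scaled to gene length and library size) above 1 in at least 1 library, as 21175 of all genes did. Trp63 did not pass this filter. The table holds 8 RNA-seq libraries of C57BL/6J mouse spermatocytes, 1 for each combination of stage, age and genotype. Pachytene (P) and leptotene or zygotene (L/Z) cells, separated by sedimentation in a BSA gradient, came from mice at postnatal day (PD) 24 and PD 52 by the labels, although a legend of the study gives the older mice another age. The MFN2 WT mice carried Mfn2 loxp/loxp alleles by their labels, while the methods name controls with 1 or both alleles floxed. The MFN2 cKO mice were Mfn2 loxp/loxp with Stra8-Cre, a transgene that drives Cre in male germ cells and removes exon 6 of Mfn2, the gene of the mitochondrial fusion protein mitofusin 2. The number of mice behind each library was not given in the sources used here.

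During meiosis the cell cuts its own DNA, and the breaks are marked by phosphorylation of the histone variant H2AX, the product of H2afx. At pachytene the kinase ATR, with its activator TOPBP1 and the axis protein BRCA1, carries this mark onto the X and Y chromosomes, and MDC1 spreads it along their chromatin, which is then silenced. The ubiquitin ligase RNF8 is recruited by MDC1. Breaks that remain can activate a second route, from ATM and the kinase CHK2 (Chek2) to p63 (Trp63) and the cell cycle inhibitor p21 (Cdkn1a). These are actions of proteins, largely through phosphorylation, whereas the libraries measured mRNA only.

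Reads on genes numbered 14340665 in the shallowest library and 20379950 in the deepest. Mfn2 itself was at 34.3 FPKM in MFN2 cKO and 82.2 in MFN2 WT L/Z cells at PD 24, 47.9 and 97.5 in L/Z cells at PD 52, 39.6 and 77.1 in P cells at PD 24, and 50.1 and 62.2 in P cells at PD 52. MFN2 cKO libraries were thus lower in 4 of 4 pairs, at 41.8% to 80.5% of the MFN2 WT level, counted over the whole gene and not over the floxed exon. Of the 8 markers of pachytene cells, Piwil1 was at 168 to 278 FPKM in P and 16.0 to 40.6 in L/Z libraries. Pou5f2 was at 44.2 to 63.3 and 3.78 to 4.37. Ccna1, at 83.1 to 102 in P and 88.4 to 114 in L/Z libraries, was lower in P in every pair. So was Aurka, at 72.4 to 92.6 and 85.3 to 108.5. Hist1h1t, Nek2, Ldhc and Adam3 went both ways between pairs, and the summed level of all 8 markers overlapped between the stages. The 8 markers of leptotene and zygotene cells summed to 75.7 to 80.1 FPKM in L/Z and 45.9 to 54.4 in P libraries, but without M1ap, at 20.6 to 55.2 in L/Z and 7.97 to 19.7 in P, the sums overlapped, at 22.1 to 55.4 and 28.2 to 41.7. RNA of other cells was present throughout, and no marker was at 0 in any library. The sum of 12 spermatid markers ran from 136 FPKM (MFN2 cKO P, PD 24) to 20800 (MFN2 cKO L/Z, PD 52), which was 11706 in MFN2 WT L/Z cells at PD 52. The MFN2 cKO L/Z library at PD 52 also held the lowest level of 7 of the 10 genes, so the stage and age results are also given without the pair it belongs to.

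The genes spanned a wide range of levels. By the median FPKM over the 8 libraries the order was Mdc1 at 40.1, H2afx at 35.3, Atr at 13.7, Topbp1 at 8.64, Cdkn1a at 4.65, Brca1 at 4.16, Atm at 3.38, Rnf8 at 2.44, Chek2 at 1.29 and Trp63 at 0.238. Each gene's range over the libraries overlapped that of its neighbours in this order, except that the lowest Chek2 level of 0.866 lay above the highest Trp63 level of 0.366. Atr stood above Atm in every library, by 2.03 to 4.42 times in L/Z and 6.16 to 8.09 times in P cells. FPKM divides by gene length, and for 9 of the 10 genes, Rnf8 excepted, the length in the table counts every annotated exon. For Atr this length was 23629 bases, 2.92 times its longest coding transcript, since 11 of its 13 annotated transcripts retain introns, and for Topbp1 it was 2.15 times, so that the FPKM of these genes is lower than per coding transcript.

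**Figure D1:**
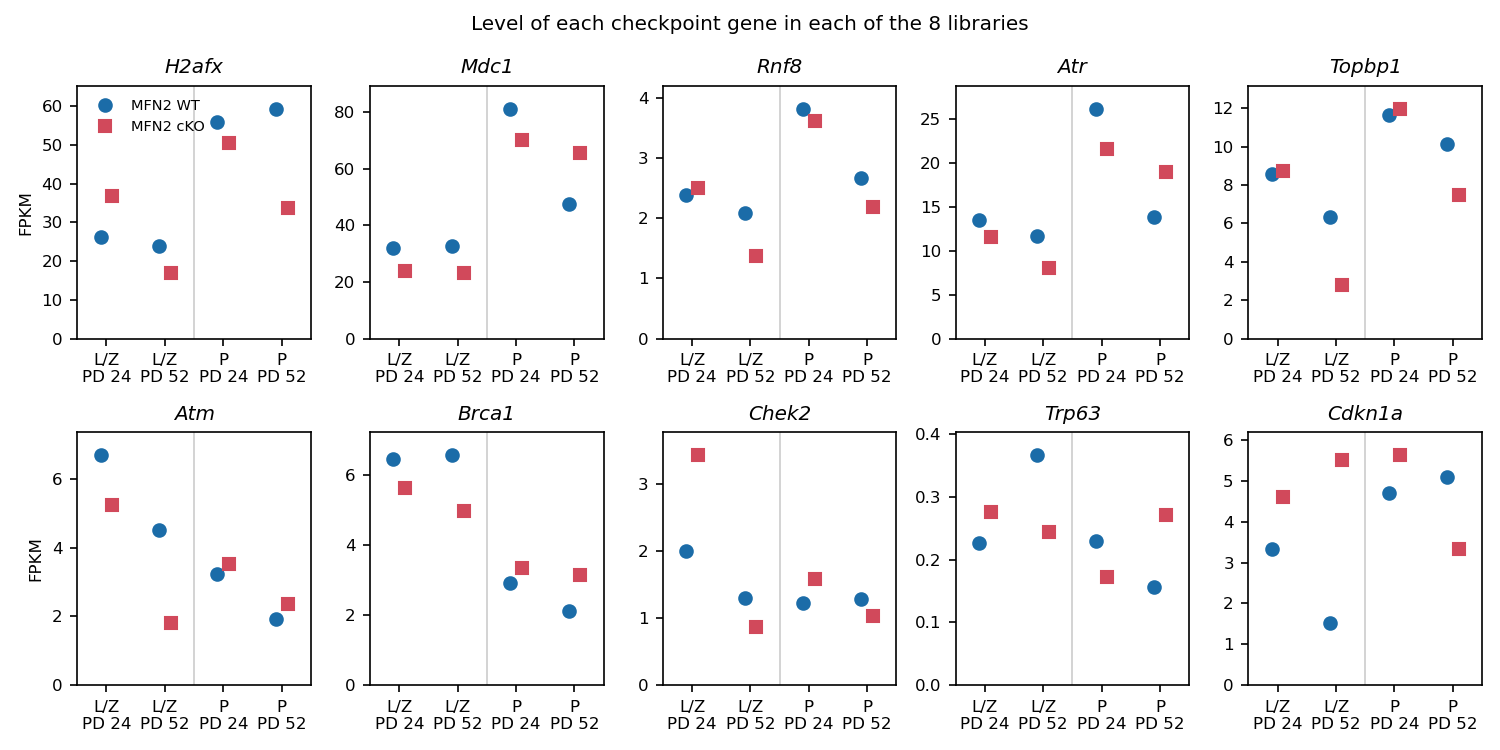
FPKM of each of the 10 genes (y axis, linear from 0, with its own scale in each panel) in the 8 libraries, by stage and age on the x axis. Each point is 1 library, blue circles MFN2 WT and red squares MFN2 cKO; Mdc1 and Atr are higher and Brca1 is lower in all P libraries than in any L/Z library, and 7 genes have their lowest point in MFN2 cKO L/Z cells at PD 52.

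Among the genes that mark breaks and spread the mark, Mdc1 differed most with stage. Mdc1 (ENSMUSG00000061607, chr17:35841515-35859670, 16 exons) was at 32.0 FPKM in MFN2 WT and 24.0 in MFN2 cKO L/Z cells at PD 24, at 32.6 and 23.2 in those at PD 52, at 81.1 and 70.0 in P cells at PD 24, and at 47.5 and 65.6 in P cells at PD 52. Every P library lay above every L/Z library. Its common effect of stage, the mean P minus L/Z difference of log2(FPKM + 1) over the 4 pairs of equal age and genotype, was 1.20 (SE 0.20, adjusted p = 0.00677, limma with the pair as a block and Benjamini-Hochberg adjustment over 21175 genes). As in all these bulk samples, fewer cells of a type and less RNA per cell cannot be told apart. The pairs differ in age and genotype and are not replicates of 1 condition, so each test measures the spread between these pairs.

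H2afx (ENSMUSG00000049932, chr9:44334694-44336077) is a gene of a single exon that encodes H2AX itself. It was at 26.3 FPKM in MFN2 WT and 36.9 in MFN2 cKO L/Z cells at PD 24, at 23.9 and 17.0 in L/Z cells at PD 52, at 56.1 and 50.6 in P cells at PD 24, and at 59.4 and 33.7 in P cells at PD 52. P libraries were the higher in 4 of 4 pairs, but the MFN2 cKO P library at PD 52 lay below the MFN2 cKO L/Z library at PD 24, so the stages overlapped. The common effect of stage was 0.93 (SE 0.18, adjusted p = 0.0101 by limma). An antisense gene, Gm44335, overlaps 10.2% of the exon bases of H2afx, and whether counting used strand was not given in the sources used here.

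Rnf8 (ENSMUSG00000090083, chr17:29614790-29641664), the ubiquitin ligase, was far lower. L/Z cells at PD 24 held 2.38 FPKM (MFN2 WT) and 2.50 FPKM (MFN2 cKO), those at PD 52 2.08 and 1.38, P cells at PD 24 3.82 and 3.62, and P cells at PD 52 2.67 and 2.19. The stage difference was above 0 in all 4 pairs but missed the threshold, at 0.40 (SE 0.14, adjusted p = 0.0656 by limma), and it passed when only protein-coding genes were tested (adjusted p = 0.0455). Between 64 and 245 reads stood behind each value. The annotation behind the table gives Rnf8 other coordinates than GENCODE release M21 does, where Gm28043 overlaps it on the same strand, and reads of the overlap cannot be told apart. Its length in the table, 3178 bases, is 0.588 times its longest coding transcript in that release, so its FPKM rests on another basis than that of the other genes.

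Brca1 (ENSMUSG00000017146, chr11:101488764-101551955, reverse strand, 23 exons), which sits on the unpaired chromosome axes and brings ATR there, went the other way. It was at 6.47 FPKM in MFN2 WT and 5.63 in MFN2 cKO L/Z cells at PD 24, at 6.57 and 4.97 in L/Z cells at PD 52, at 2.92 and 3.34 in P cells at PD 24, and at 2.10 and 3.15 in P cells at PD 52. No L/Z library was as low as any P library. Its common effect of stage was -0.84 (SE 0.17, adjusted p = 0.0123 by limma). The ratio of Mdc1 to Brca1 FPKM therefore stood at 4.26 to 4.96 in the L/Z libraries and at 20.8 to 27.8 in the P libraries.

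Of the kinase genes, Atr and the activator gene Topbp1 were higher in P cells and Atm was not. Atr (ENSMUSG00000032409, chr9:95857597-95951781, 47 exons in its longest coding transcript) was at 13.6 FPKM in MFN2 WT and 11.6 in MFN2 cKO L/Z cells at PD 24, at 11.7 and 8.05 in L/Z cells at PD 52, at 26.2 and 21.6 in P cells at PD 24, and at 13.9 and 19.0 in P cells at PD 52. The P libraries did not overlap the L/Z libraries, although the lowest P level of 13.9 and the highest L/Z level of 13.6 were close. The common effect of stage was 0.78 (SE 0.18, adjusted p = 0.0203 by limma), and with no filter on low values its adjusted p was 0.0591. Noncoding genes overlap 5.8% of the Atr exon bases, among them the antisense genes 1700065D16Rik and Gm16794.

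Topbp1 (ENSMUSG00000032555, chr9:103305215-103350428) was at 8.58 FPKM in MFN2 WT and 8.70 in MFN2 cKO L/Z cells at PD 24, at 6.33 and 2.80 in L/Z cells at PD 52, at 11.6 and 12.0 in P cells at PD 24, and at 10.1 and 7.50 in P cells at PD 52. P cells were higher within every pair, and the stages overlapped across ages. The common effect of stage was 0.64 (SE 0.17, adjusted p = 0.0317 by limma). It missed the threshold under a further scaling of the libraries by median ratios (0.56, adjusted p = 0.0507), with scaling to total reads (adjusted p = 0.056), with additive terms in place of the pairs (adjusted p = 0.0576), with no filter on low values (adjusted p = 0.0781) and without any 1 of the 4 pairs.

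Atm (ENSMUSG00000034218, chr9:53439149-53536740, reverse strand, 62 exons) was at 6.69 FPKM in MFN2 WT and 5.23 in MFN2 cKO L/Z cells at PD 24, at 4.50 and 1.82 in L/Z cells at PD 52, at 3.24 and 3.52 in P cells at PD 24, and at 1.94 and 2.37 in P cells at PD 52. It was lower in P than in L/Z cells in 3 of 4 pairs, by -0.47 to -0.91 on the log2(FPKM + 1) scale, and higher by 0.26 in MFN2 cKO cells at PD 52. The common effect of stage was -0.49 (SE 0.22, adjusted p = 0.127 by limma). On whole reads recovered from the FPKM, limma-voom gave -0.67 with an adjusted p of 0.0455.

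Of the effector route, Chek2 and Trp63 had the lowest levels of the 10 genes and Cdkn1a a level close to that of Brca1. Chek2 (ENSMUSG00000029521, chr5:110839979-110874145) was at 1.99 FPKM in MFN2 WT and 3.42 in MFN2 cKO L/Z cells at PD 24, at 1.29 and 0.866 in L/Z cells at PD 52, at 1.22 and 1.58 in P cells at PD 24, and at 1.29 and 1.03 in P cells at PD 52. The highest level was thus in MFN2 cKO L/Z cells at PD 24 and the lowest in the same cells at PD 52. Its common effect of stage was -0.27 (SE 0.19, adjusted p = 0.317 by limma).

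Trp63 (ENSMUSG00000022510, chr16:25683763-25892102), the gene of p63, was near the floor of the measurement. L/Z cells at PD 24 held 0.227 FPKM (MFN2 WT) and 0.275 FPKM (MFN2 cKO), those at PD 52 0.366 and 0.245, P cells at PD 24 0.230 and 0.173, and P cells at PD 52 0.156 and 0.271. These values rest on 21 to 46 reads spread over a gene of 8391 exon bases, and in 4 of 4 genotype pairs the 95% counting interval of the difference included 0. No difference with genotype was detectable at this depth. The interval excluded 0 for stage in MFN2 WT cells at PD 52 (-0.24, from -0.37 to -0.09). It also did for age in MFN2 WT L/Z cells (0.155, from 0.0065 to 0.297). Both pairs hold the MFN2 WT L/Z library at PD 52, the highest for Trp63, and in all other stage and age pairs the interval included 0.

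Cdkn1a (ENSMUSG00000023067, chr17:29090976-29100727), the gene of p21 and a target of the p53 family, varied without regard to stage. It was at 3.34 FPKM in MFN2 WT and 4.60 in MFN2 cKO L/Z cells at PD 24, at 1.52 and 5.53 in L/Z cells at PD 52, at 4.70 and 5.63 in P cells at PD 24, and at 5.11 and 3.34 in P cells at PD 52. The single low library was MFN2 WT L/Z at PD 52. The common effect of stage was 0.33 (SE 0.28, adjusted p = 0.396 by limma), with single pairs from -0.59 in MFN2 cKO cells at PD 52 to 1.27 in MFN2 WT cells at PD 52. The antisense gene AC167363.2 overlaps 7.7% of its exon bases.

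Of the 9 genes tested, 5 therefore differed between P and L/Z cells, where 28.4% of all genes tested did. Mdc1, H2afx, Atr and Topbp1 were higher in P cells (12.4% of all genes) and Brca1 was lower (16.0% of all genes), and the median common effect of the 9 genes was 0.40 against -0.04 over all genes. Mdc1, Atr and Brca1 were the genes whose P and L/Z libraries did not overlap, as was so for 15.7% of all genes. Within single pairs, at least 2-fold differences on the log2(FPKM + 1) scale were seen for Mdc1 and H2afx in MFN2 WT cells at PD 24 (16.3% of genes), for Mdc1 in MFN2 cKO cells at PD 24 (20.0% of genes), for H2afx, Cdkn1a and Brca1 in MFN2 WT cells at PD 52 (20.2% of genes), and for Mdc1, Atr and Topbp1 in MFN2 cKO cells at PD 52 (24.7% of genes). The calls depend on single pairs. Without the pair of MFN2 cKO libraries at PD 52 the effects were 1.12 for Mdc1, 0.93 for H2afx, 0.66 for Atr, 0.47 for Topbp1 and -0.94 for Brca1, with adjusted p-values from 0.0644 to 0.110. Without the MFN2 WT pair at PD 24 they were 1.17, 0.89, 0.74, 0.73 and -0.81, with adjusted p-values from 0.0717 to 0.123. In both cases no gene of the whole table passed the threshold, with 2 residual degrees of freedom left in place of 3, and without the MFN2 cKO pair at PD 24 Mdc1, H2afx and Brca1 did. Sertoli cell markers moved with stage as well: the sum of 7 markers was 250 to 644 FPKM in P and 21.3 to 210 in L/Z libraries. The 4 markers of peritubular myoid cells summed to 4.76 to 31.8 in P and 46.1 to 160 in L/Z, and the spermatid and macrophage sums were lower in P in 4 of 4 pairs. The part of these cells in the stage differences was not tested.

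**Figure D2:**
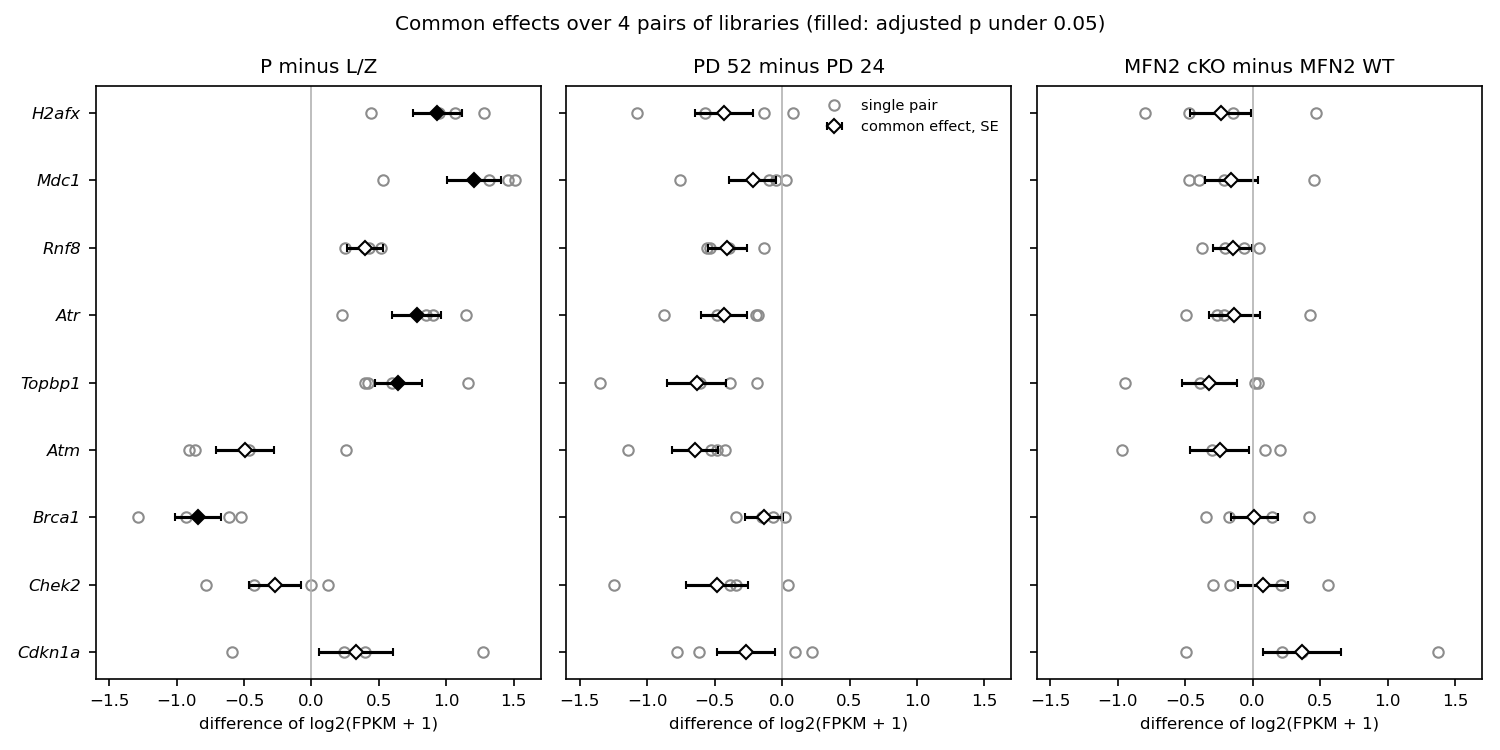
Common effects of stage, age and genotype on the 9 genes tested, as differences of log2(FPKM + 1) on the x axis. Diamonds with bars are the common effect and its SE, filled where the adjusted p was under 0.05, and open circles are the 4 single pairs; 5 genes are filled for stage and none for age or genotype, where the single pairs of most genes fall on both sides of 0.

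The sequences upstream of the genes that differed with stage are shown so that their promoters can be compared. RefSeq's promoter windows on GRCm38.p6 held entries for 8 of the 10 genes, not H2afx and Trp63, and the stretches of the 250 bases before the start site that no annotated coding gene's exon covers are printed 5′ to 3′ for Mdc1, Atr and Topbp1, which were higher in P cells, and for Brca1, which was lower. Capitals mark matches on either strand to 4 motifs chosen after the data were seen: the CCAAT box (CCAAT), the half-site of the cyclic AMP response element (TGACG), an E2F motif (TTTCCCGC) and the core of the MYB motif (AACTG).
Mdc1, chr17:35841248-35841497 (forward strand): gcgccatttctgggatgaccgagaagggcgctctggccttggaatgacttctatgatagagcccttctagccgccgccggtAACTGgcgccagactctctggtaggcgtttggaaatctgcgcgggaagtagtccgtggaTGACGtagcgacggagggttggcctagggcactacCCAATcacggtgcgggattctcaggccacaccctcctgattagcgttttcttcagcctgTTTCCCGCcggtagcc
Atr, chr9:95857347-95857596 (forward strand): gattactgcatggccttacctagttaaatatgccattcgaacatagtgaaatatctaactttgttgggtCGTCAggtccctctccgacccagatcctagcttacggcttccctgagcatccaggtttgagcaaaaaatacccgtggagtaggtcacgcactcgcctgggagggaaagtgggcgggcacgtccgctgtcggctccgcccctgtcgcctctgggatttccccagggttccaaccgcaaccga
Topbp1, chr9:103305083-103305214 (forward strand): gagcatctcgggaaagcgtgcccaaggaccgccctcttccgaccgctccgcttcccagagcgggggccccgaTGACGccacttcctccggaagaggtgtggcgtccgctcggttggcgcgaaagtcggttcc
Brca1, chr11:101551956-101552148 (reverse strand): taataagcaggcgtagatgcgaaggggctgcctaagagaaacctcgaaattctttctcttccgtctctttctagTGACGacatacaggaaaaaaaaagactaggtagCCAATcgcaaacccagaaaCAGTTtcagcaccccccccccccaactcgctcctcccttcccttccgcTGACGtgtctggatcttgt
The half-site TGACG or its reverse complement CGTCA was found in the 250 bases of Mdc1, Atr, Topbp1 and Brca1 and in those of 17.8% of all 32851 windows, so it was present on both sides of the stage difference. CCAAT was found for Mdc1, Atm, Brca1, Rnf8 and Chek2 and in 33.8% of all windows, AACTG for Mdc1, Brca1 and Rnf8 and in 39.1%, and TTTCCCGC for Mdc1 and Chek2 and in 0.895%. A match is a run of letters and not a bound site.

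With age no gene passed the test, and for 5 of the 9 the single pairs lay on both sides of 0. The common effect of age, PD 52 minus PD 24, was below 0 for all 9 genes tested. Its median was -0.43, against 0.00 over all genes and -0.11 over protein-coding genes only. For 0 of the 9 was the adjusted p under 0.05, where 17.3% of all genes tested passed. At an unadjusted p under 0.05 there were 4 of the 9, where 7953 of all 21175 genes were. They were Atm at -0.64 (SE 0.17, adjusted p = 0.0515), Topbp1 at -0.63 (SE 0.22, adjusted p = 0.0917), Atr at -0.43 (SE 0.17, adjusted p = 0.12) and Rnf8 at -0.41 (SE 0.15, adjusted p = 0.101), all by limma. Atm was the closest to the threshold, and it passed when only protein-coding genes were tested (adjusted p = 0.0395), on recovered reads by limma-voom (adjusted p = 0.0312) and with libraries scaled to their total reads (adjusted p = 0.0477). For no gene did the PD 24 and PD 52 libraries separate, as they did for 13.4% of all genes.

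The age differences were unequal between cells. On the log2(FPKM + 1) scale 4 genes were at least 2-fold lower at PD 52 in MFN2 cKO L/Z cells, where 31.5% of all genes differed at least 2-fold. They were Topbp1 at 2.80 against 8.70 FPKM, Atm at 1.82 against 5.23, Chek2 at 0.866 against 3.42 and H2afx at 17.0 against 36.9. On this scale none differed 2-fold in MFN2 WT L/Z cells (13.3% of all genes), MFN2 WT P cells (14.6%) or MFN2 cKO P cells (18.9%). As a ratio of scaled reads Cdkn1a was past 2-fold in MFN2 WT L/Z cells, at 1.52 against 3.34 FPKM. Topbp1, Atm, Atr and Rnf8 were lower at PD 52 in 4 of 4 pairs. The counting interval of the age difference included 0 for H2afx, Mdc1, Brca1 and Rnf8 in MFN2 WT L/Z cells, for Mdc1 in MFN2 cKO L/Z cells, for H2afx, Chek2 and Cdkn1a in MFN2 WT P cells and for Brca1 in MFN2 cKO P cells. The 12 spermatid markers summed to 517 FPKM in MFN2 cKO L/Z cells at PD 24 and 20800 at PD 52, the 8 spermatogonial markers to 274 and 66.5, and their part in these differences was not tested. Without the MFN2 cKO L/Z pair the age effects were still below 0 for all 9 genes and none was called, with Atm at -0.48 (adjusted p = 0.126 by limma), Topbp1 at -0.39, H2afx at -0.21 and Chek2 at -0.23.

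**Figure D3:**
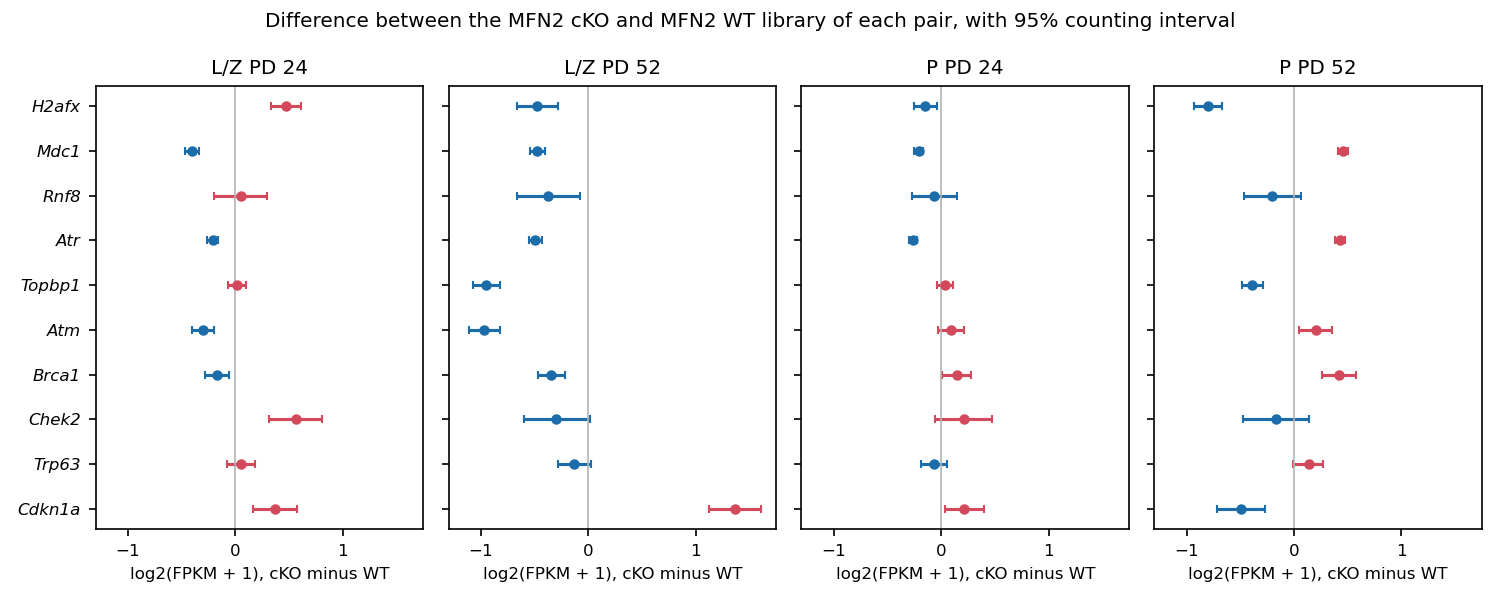
Difference in log2(FPKM + 1) between the MFN2 cKO and the MFN2 WT library (x axis) for the 10 genes, in the 4 pairs of equal stage and age. Points are single differences, red above 0 and blue below, and bars are 95% counting intervals that hold no biological spread; Cdkn1a in L/Z cells at PD 52 is the largest difference at 1.37, and Mdc1 and Atr lie below 0 in 3 pairs and above 0 in P cells at PD 52.

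Loss of MFN2 was the question of the study, and no difference common to the 4 pairs of MFN2 cKO and MFN2 WT libraries passed the test for these genes. By limma 0 of the 9 genes tested passed at an adjusted p under 0.05, where 0.137% of all genes did. None of the 9 was at an unadjusted p under 0.05, where 1467 of all 21175 genes were. The same held by limma-voom on recovered reads, where 1439 of all genes were. The common effects of genotype ran from -0.32 for Topbp1 (SE 0.20, adjusted p = 0.826) to 0.37 for Cdkn1a (SE 0.29, adjusted p = 0.871), and Brca1 was at 0.01 (SE 0.17). Without the L/Z pair at PD 52 Topbp1 was at -0.11, Cdkn1a at 0.03 and Atm at -0.0036, in place of -0.24 with all 4 pairs. Without the P pair at PD 52 Cdkn1a was at 0.65, Mdc1 at -0.36 in place of -0.16, and Atr at -0.32 in place of -0.13. H2afx was then at -0.05 in place of -0.24. With 3 residual degrees of freedom Mfn2 itself, at -0.87 (SE 0.19), had an adjusted p of 0.275. The MFN2 WT and MFN2 cKO libraries overlapped for every one of the 9 genes, and were apart for 0.911% of all genes.

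The single pairs held larger differences than the common effect, in opposite directions. In L/Z cells at PD 24, Mdc1 was at 24.0 FPKM in MFN2 cKO against 32.0 in MFN2 WT (-0.40 on the log2(FPKM + 1) scale), Chek2 at 3.42 against 1.99 (0.56) and H2afx at 36.9 against 26.3 (0.47), and no gene reached 2-fold (10.5% of all genes did). In P cells at PD 24 the differences ran from -0.26 for Atr to 0.22 for Cdkn1a, and with libraries scaled to their total reads from -0.10 to 0.37 for the same genes, again with none at 2-fold (8.08% of all genes). In P cells at PD 52 H2afx was lower in MFN2 cKO, at 33.7 against 59.4 FPKM (-0.80), while Mdc1 was higher, at 65.6 against 47.5 (0.46), and Atr at 19.0 against 13.9 (0.43), with none at 2-fold (11.0% of all genes).

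In L/Z cells at PD 52, 8 of the 9 genes were lower in MFN2 cKO and 1 was higher. Atm was at 1.82 against 4.50 FPKM, a difference of -0.97 with a 95% counting interval from -1.11 to -0.82, and Topbp1 at 2.80 against 6.33, a difference of -0.95 with an interval from -1.07 to -0.82. Cdkn1a was at 5.53 against 1.52 FPKM, from 287 and 81 reads, a difference of 1.37 with an interval from 1.13 to 1.61 and the 1 difference of at least 2-fold in this pair (7.95% of all genes). As a ratio of scaled reads, with no pseudocount, Cdkn1a was 3.63 times as high in MFN2 cKO, and Atm and Topbp1, at 0.404 and 0.443 of the MFN2 WT level, were also past 2-fold. The share of all genes past 2-fold as such a ratio was not counted. The intervals cover counting error only, since reads amplified by PCR without molecular identifiers are not independent molecules, and with 1 library a group no pair has a replicate check.

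Markers of other cells moved with these pairs. The 6 macrophage markers summed to 97.8 FPKM in MFN2 cKO and 15.8 in MFN2 WT L/Z cells at PD 52, where Cdkn1a was the higher in MFN2 cKO, and to 78.6 and 28.9 in L/Z cells at PD 24. In P cells they summed to 25.8 and 12.7 at PD 24 and to 13.3 and 4.94 at PD 52, where Cdkn1a was at 3.34 FPKM in MFN2 cKO and 5.11 in MFN2 WT. The summed level of 7 Leydig cell markers was also higher in MFN2 cKO in every pair, at 99.0 against 27.5 FPKM in L/Z cells and 641 against 255 in P cells at PD 52. The spermatid markers were higher in MFN2 cKO in L/Z cells at PD 52, at 20800 against 11706 FPKM, and lower in the other pairs, at 517 against 2729 in L/Z and 136 against 1362 in P cells at PD 24 and 2423 against 5181 in P cells at PD 52. The spermatogonial markers were lower in MFN2 cKO at PD 52, at 66.5 against 142 FPKM in L/Z and 72.0 against 144 in P cells, and the Sertoli markers stood at 250 against 520 in P cells at PD 52, where H2afx was lower. All markers of these lists were above 0 in every library. Their part in the differences of Cdkn1a, Atm, Topbp1 and H2afx was not tested.

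Whether the genotype difference itself depended on age or stage was tested as an interaction. For age, PD 52 minus PD 24, the differences of the genotype effect furthest from 0 were -0.80 for H2afx (SE 0.35, adjusted p = 0.424), -0.69 for Topbp1 (SE 0.30, adjusted p = 0.426) and -0.62 for Chek2 (SE 0.29, adjusted p = 0.449). For stage, P minus L/Z, they were -1.01 for Cdkn1a (SE 0.47, adjusted p = 0.972) and 0.78 for Atm (SE 0.35, adjusted p = 0.972). By limma 0 of the 9 genes passed in either test, where 0.0142% of all genes passed for age and 0% for stage. An unadjusted p under 0.05 was found for 0 of the 9, against 2641 of all 21175 genes for age and 876 for stage. On recovered reads limma-voom called 0 of the 9 in either test. For age 2 were at an unadjusted p under 0.05, where 3359 of all 21175 genes were.

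The other genes of the checkpoint were read by their roles, in lists of 68 genes of which 65 passed the filter. With stage 9 of the 65 were higher and 11 lower in P cells at an adjusted p under 0.05, shares near the 12.4% and 16.0% of all genes, so the calls below describe single genes and not the lists. Among the clamp, its loader and the partners of ATR, Rad9b, the clamp subunit found mainly in testis, was higher (0.79, SE 0.15), and the clamp loader gene Rad17 (-0.51, SE 0.15) and Tipin (-1.0, SE 0.22), of the fork protection complex, were lower. The sensor complex of Mre11a, Rad50 and Nbn had no call, with all 3 effects below 0 and a median of -0.14. Of the ubiquitin and chromatin response, L3mbtl2, a substrate of RNF8, was higher (1.34, SE 0.17, adjusted p = 0.00382 by limma) and Ube2n, the E2 enzyme that works with RNF8, was lower (-0.76, SE 0.18). L3mbtl2 stood at 16.2, 13.8, 10.7 and 10.2 FPKM in the P and at 5.58, 5.18, 5.20 and 2.24 in the L/Z libraries, with no overlap.

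BRCA1's partners split. Bard1, which forms the ligase with BRCA1, was higher in P cells (0.61, SE 0.16) where Brca1 was lower, and the helicase gene Brip1 was lower (-0.56, SE 0.17). Of the axis proteins that recruit ATR and BRCA1, Hormad1 (1.09, SE 0.22) and Hormad2 (0.64, SE 0.17) were higher. Apart from these, Scml2, which acts on sex chromosome silencing, was lower (-0.76, SE 0.19). Hormad1 was at 36.9 to 54.8 FPKM in P and 10.3 to 39.9 in L/Z libraries, so the stages overlapped. H2afx was not the single H2A variant gene to differ: H2afy (0.93, SE 0.16) and H2afz (0.74, SE 0.21) were higher and H2afy2 (-0.80, SE 0.14) was lower.

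**Figure D4:**
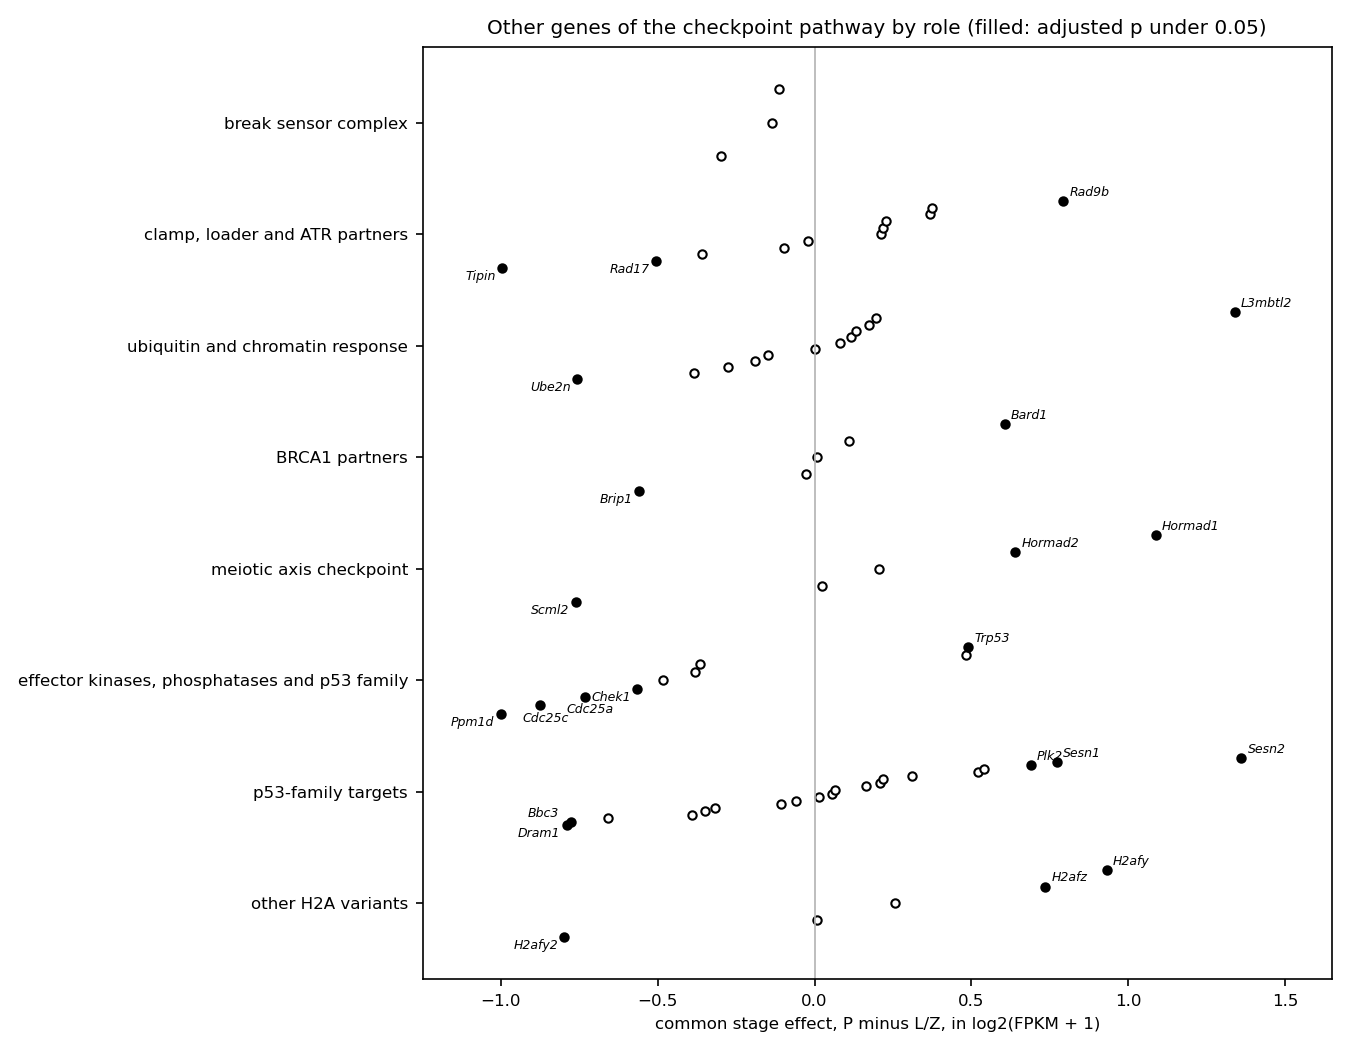
Common effect of stage (x axis, P minus L/Z, in log2(FPKM + 1)) for the other genes of the checkpoint and the other H2A variants, grouped by role on the y axis. Each point is 1 gene, filled and named where the adjusted p was under 0.05; calls lie on both sides of 0 in every group except the break sensor complex, which has none.

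Downstream, the kinase gene Chek1 (-0.57, SE 0.15), the phosphatase genes Cdc25a (-0.73, SE 0.14) and Cdc25c (-0.88, SE 0.14) and Ppm1d (-1.0, SE 0.18), whose product dephosphorylates H2AX and p53, were lower in P cells and Trp53 was higher (0.49, SE 0.15). Chek1 was above Chek2 in every library. Of 20 p53-family targets tested, Sesn1, Sesn2 and Plk2 were higher, with Sesn2 at 1.36 (SE 0.18), and Bbc3 and Dram1 were lower. Cdkn1a belongs to this group by function and was not called. With age, Cdc25c, Dram1, Ppm1d and Ube2n were higher at PD 52, by 0.80 to 0.95, and Btg2, Plk3, Sesn2, Trp53, Fas and Usp28 were lower, by -0.67 to -1.46. Of the p53-family targets 17 of 20 had an age effect below 0, with a median of -0.58, and 4 were lower and 1 was higher by the test, where 5.41% and 11.9% of all genes were.

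For genotype 0 of the 65 passed by limma (0.137% of all genes did). The highest were Btg2 (0.78, SE 0.15, adjusted p = 0.197) and Fas (0.53, SE 0.22, adjusted p = 0.720), both of the p53-family targets, of which 12 of 20 were above 0 with a median of 0.05, and the lowest were Hus1b (-0.38, SE 0.15, adjusted p = 0.701) and Babam1 (-0.37, SE 0.19, adjusted p = 0.782). Btg2 was higher in MFN2 cKO in 4 of 4 pairs, at 49.3 against 27.0 FPKM in L/Z cells at PD 24, 12.5 against 6.26 at PD 52, 45.2 against 30.9 in P cells at PD 24 and 25.7 against 13.9 at PD 52. Cdkn1a, which shares its regulator, was higher in 3 of 4.

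Since Mdc1, Atr, Topbp1, Brca1 and H2afx act in sex chromosome silencing, the level of X-linked genes was taken in the same libraries. Over 506 X-linked and 11895 autosomal protein-coding genes with a mean FPKM above 1, the median log2(FPKM + 1) of X-linked genes was below that of autosomal genes by -0.61 to -0.87 in the L/Z and by -1.10 to -1.27 in the P libraries, with no overlap between the stages. Within pairs the X-linked genes were also taken without the autosomal genes. Their median change from L/Z to P cells at PD 24 was -0.63 (MFN2 WT) and -0.67 (MFN2 cKO). At PD 52 it was -0.16 and -0.36. After subtraction of the median autosomal change, MFN2 WT cells had -0.74 in the PD 24 pair and -0.21 in the PD 52 pair. MFN2 cKO cells then had -0.61 and -0.40, so the order of the genotypes at PD 24 was the reverse. Ordered by Mdc1, the 4 P libraries ran from 47.5 FPKM with an X-linked level of -1.10 (MFN2 WT, PD 52) through 65.6 with -1.17 and 70.0 with -1.19 to 81.1 with -1.27 (MFN2 WT, PD 24). The 4 L/Z libraries showed no such order, and among P libraries it was lost over genes with a mean FPKM above 5, where the X-linked levels in the same sequence were -0.78, -1.07, -1.04 and -1.09. These values describe 8 libraries that differ in cell makeup and carry no test.

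**Figure D5:**
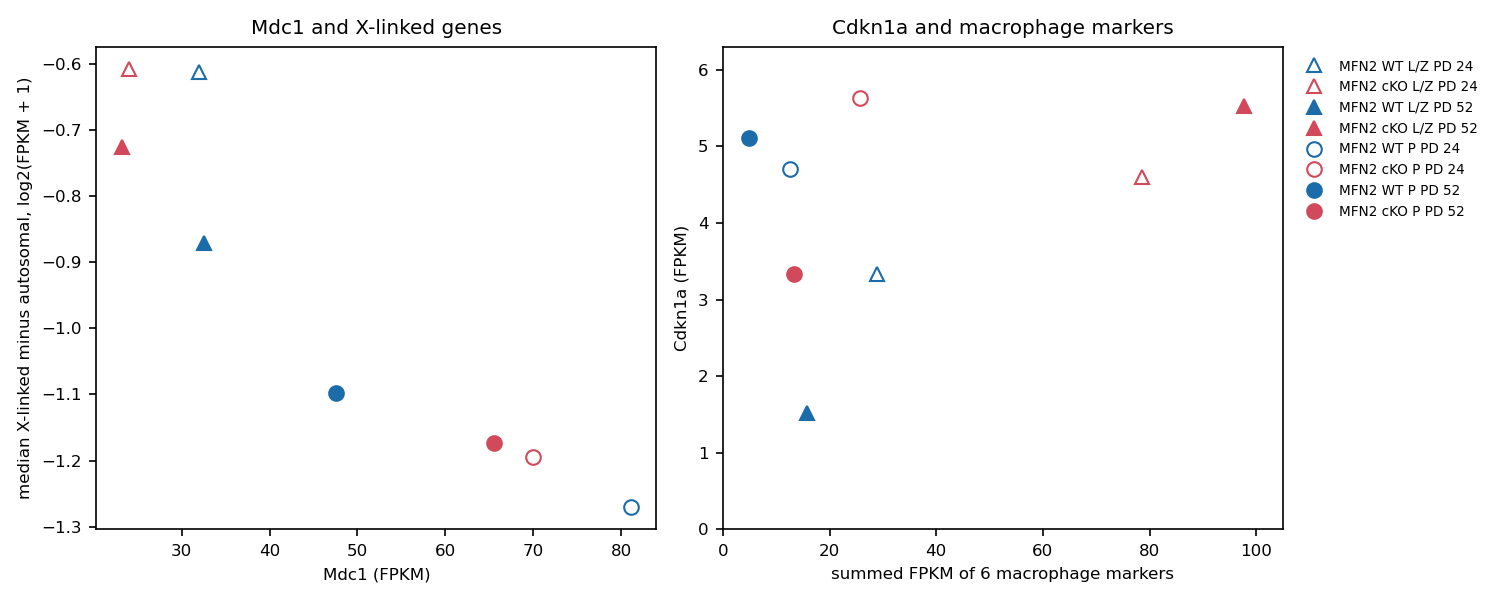
Left, Mdc1 FPKM (x axis) against the median X-linked minus autosomal level (y axis, log2(FPKM + 1)) in each library. Right, the summed FPKM of 6 macrophage markers (x axis) against Cdkn1a FPKM (y axis, from 0). Triangles are L/Z and circles P libraries, blue MFN2 WT and red MFN2 cKO, open PD 24 and filled PD 52; the P libraries lie lower on the left, and on the right the 2 MFN2 cKO L/Z libraries have the highest marker sums, at 78.6 and 97.8.

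Across the 8 libraries the genes formed patterns of their own, given as Pearson correlations of log2(FPKM + 1) over libraries that share stage, age and genotype contrasts. Mdc1 and Atr had r = 0.95, Topbp1 and Rnf8 0.93, H2afx and Topbp1 0.89, and Atm went with Chek2 (0.73) and Brca1 (0.69) but not with Atr (0.03). Cdkn1a had r = 0.39 with H2afx, its highest within the 10 genes, -0.53 with Brca1 and -0.81 with Trp63, whose counts are sparse. Of 12426 other protein-coding genes, those most like each were Kansl3, Zfp382 and Zfp661 for Mdc1 (r = 0.99 to 1.00), Rbm17, Aasdhppt and Bud23 for H2afx, Pip4k2c, Anks3 and Ddb1 for Rnf8, Foxo4, Mpdz and Sptbn1 for Brca1, Marf1, Capn15 and Sp1 for Atr, Mov10l1, Tab1 and Helq for Topbp1, Fam222b, Jarid2 and Ago1 for Atm, and Nek3, P4hb and Ccng1 for Chek2. For Cdkn1a they included Mrc1 (r = 0.96), a gene of macrophages, and Rrp9, and for Trp63 they were Recql, Mttp and Apobec2. Such values are common with 8 libraries: 737 genes had an r above 0.9 with Rnf8 and 668 with Mdc1, against 11 with Cdkn1a and 2 with Trp63.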

How the data were processed

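Total RNA of spermatocytes was sequenced as paired reads of 150 bases. The authors made FPKM values per gene with Novomagic and deposited them with gene lengths. The submitters' processing notes name CASAVA 1.4 and Bowtie 0.12.2 and older builds, while 98.3% of the genes in the table have the coordinates of GENCODE release M21 on GRCm38. FPKM times length fell on whole multiples of 1 step a library for 100% of values above 0 (within 0.01), which gave the reads. No column was left unmapped.

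Common effects were fitted with limma 3.58.1 (R 4.3.3) on log2(FPKM + 1), with trend and the pair as a block, over the 21175 genes that exceeded an FPKM of 1 in some library, and adjusted by Benjamini-Hochberg. Differences of single pairs carry 95% Clopper-Pearson counting intervals of the reads and no test. The study states DESeq2, which was not used: the values are FPKM, and the recovered reads were tested by limma-voom only. The limma step was tested on simulated data.

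All 10 genes were given with their levels in each library, while the age, genotype and interaction results name only some of them. Of the other checkpoint genes, those that passed the test and the highest and lowest by genotype effect were named. One gene among those most like Cdkn1a is not reported here. The genes and lists were chosen with earlier results of these data known. The alternatives were a pseudocount of 0.1, further scaling, no filter, protein-coding genes only, additive terms, limma-voom on reads, each pair left out, and, added after seeing the data, scaling to total reads.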

Additional observations from a re-analysis of the deposited data

Results flagged for a closer look

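The genotype difference of Brca1 had opposite signs in the 2 stages, which flagged it. In log2(FPKM + 1) it was -0.17 in L/Z cells at PD 24 and -0.34 in L/Z cells at PD 52, and 0.15 in P cells at PD 24 and 0.42 in P cells at PD 52. The difference between the stages was 0.54 (SE 0.31) and did not pass the test (adjusted p = 0.972 by limma).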

How the results depend on the processing

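Of the members' common effects, 377 values under the alternatives kept their sign and side of the threshold, 18 fell behind it, 5 passed it and 5 changed sign. Of the differences in single pairs 370 values stayed within the counting interval, 108 moved past it and 2 changed sign where the interval excluded 0. Sign changes where the interval included 0 were not counted apart. The sign changes were of effects near 0: with a pair left out the genotype effect of Brca1 ran from -0.1229 to 0.1308 and that of Chek2 from -0.0843 to 0.2017, by limma-voom that of Brca1 was -0.0016, and its difference between ages was -0.0477 with scaling to total reads. In single pairs, where the interval excluded 0, that scaling turned H2afx in P cells at PD 24 to 0.0258 and Cdkn1a with age in MFN2 cKO L/Z cells to -0.11. Where the interval included 0 it also turned, for instance, Rnf8 in P cells at PD 24 from -0.06 to 0.08.

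Genes called for stage were 3010 with no filter, and 0 to 5000 with a pair left out, and members called were 3 and 0 to 4. For age 791 genes were called with no filter and 0 to 3937 with a pair left out, and 1 member (Atm) with scaling to total reads, protein-coding genes only or limma-voom. Scaling to total reads moved the median age effect of all genes from 0.00 to -0.13, and the genes called for age from 2523 higher and 1146 lower to 1720 and 1500; with protein-coding genes only they were 1732 and 1563. For genotype the 29 genes became 7 with a pseudocount of 0.1, 0 with no filter, 71 with protein-coding genes only, 114 by limma-voom, 3 with additive terms and 0 with any pair left out. For genotype by age 3 genes became 74 with a pseudocount of 0.1, 204 with protein-coding genes only, 624 by limma-voom, and 0 with further scaling by either method or no filter. The cause was not tested. Members past 2-fold, with a pseudocount of 0.1 or as a ratio of reads, were 3 in the L/Z PD 52 genotype pair, 4 and 2 in the MFN2 WT and MFN2 cKO stage pairs at PD 24, and 1 in the MFN2 WT L/Z age pair. In the MFN2 WT stage pair at PD 52 Atm also passed, with a log2 ratio of -1.22. The share of all genes past 2-fold under these settings was not counted. With a mean FPKM above 5, the X-linked level was -0.29, -0.31, -0.54 and -0.41 in L/Z libraries (MFN2 WT and MFN2 cKO at PD 24, then at PD 52) and -1.09, -1.04, -0.78 and -1.07 in P libraries in the same sequence. The libraries carry no replicate numbers: the pairs match libraries by condition, and additive terms were the fit without them. Few reads limit Trp63, Chek2 and Rnf8.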
